A study of Zea mays with 6 samples.

Results

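The set described here is 207 nuclear genes of maize whose transcripts were close to absent in tassel meristems of B73 plants (WT) and higher in every library of the tassel-less1 (tls1) mutant. They were drawn from 43789 nuclear identifiers by the measured values themselves. A gene entered the set if it had under 1 CPM (count divided by the total of the library, times 1000000) in each of the 3 WT libraries and at least 20 counts summed over the 3 tls1 libraries. In addition, its lowest tls1 level had to exceed its highest WT level by at least 0.5 on the log2(CPM + 0.1) scale, a distance called the gap below. The difference between genotypes is therefore a condition of entry, and its values are given as a description without a test.

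Poly-A RNA was sequenced from tassel meristems dissected at a length of 1 mm, from WT plants of the inbred line B73 and from tls1 plants, which the labels also assign to the cultivar B73 and call boron deficient. All plants received a general fertilizer at 238 ppm nitrogen, containing 0.08 ppm boron, and no further treatment. Each genotype had 3 libraries, and the tls1 allele and the number of plants behind a library are not stated. Library totals ran from 72498318 to 77619452 counted reads, so that 3 counts in a library corresponded to 0.0387 to 0.0414 CPM, which covers counting error only.

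The tassel is the male inflorescence of maize, and its meristems give rise to branches, spikelet pairs and florets. The tassel-less1 gene encodes a boron channel of the aquaporin family, and plants that lack it form small tassels or none. Boron cross-links pectin in the cell wall, and growing meristems are among the tissues most sensitive to a shortage of it. A read count near 0 in a dissected tissue can come from a gene that is off or from one that is active in a few cells. In such bulk RNA, fewer cells of a type and less RNA per cell cannot be told apart.

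Of the 43789 nuclear identifiers, 23996 were under 1 CPM in all WT libraries, and 4328 of these reached 20 counts in tls1. The 207 members were 4.78% of those 4328. None of the 207 had an entry in the reference gene table, which held no nuclear identifier of this kind, so the members are given by identifier and no function is assigned to them. For the same reason the tissue could not be checked against marker genes.

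The term switched on describes only some of the set. The tls1 mean was at least 1 CPM for 90 members and under 1 CPM for 117. At least 1 CPM in every tls1 library was reached by 57 members, in 2 of them by 25, in 1 of them by 25, and in none by 100. These last 100 members lay under the limit that defined near-silence in WT in all 6 libraries. At the top, 10 members had a tls1 mean of at least 5 CPM and 80 a mean between 1 and 5 CPM. At the bottom, 38 members had a tls1 mean under 0.25 CPM.

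Few members were without any read in WT. A WT read was present for 202 of the 207, and 158 had reads in all 3 WT libraries. The median member had 27 reads summed over WT and 183 summed over tls1, equal to mean levels of 0.12 and 0.825 CPM for the median over members. Among the 179 members with more than 3 WT reads, the ratio of the tls1 mean to the WT mean had a median of 5.7 and ran from 1.9 to 122. It was at least 10 for 51 of them, from 3 to 10 for 94 and under 3 for 34.

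**Figure D1:**
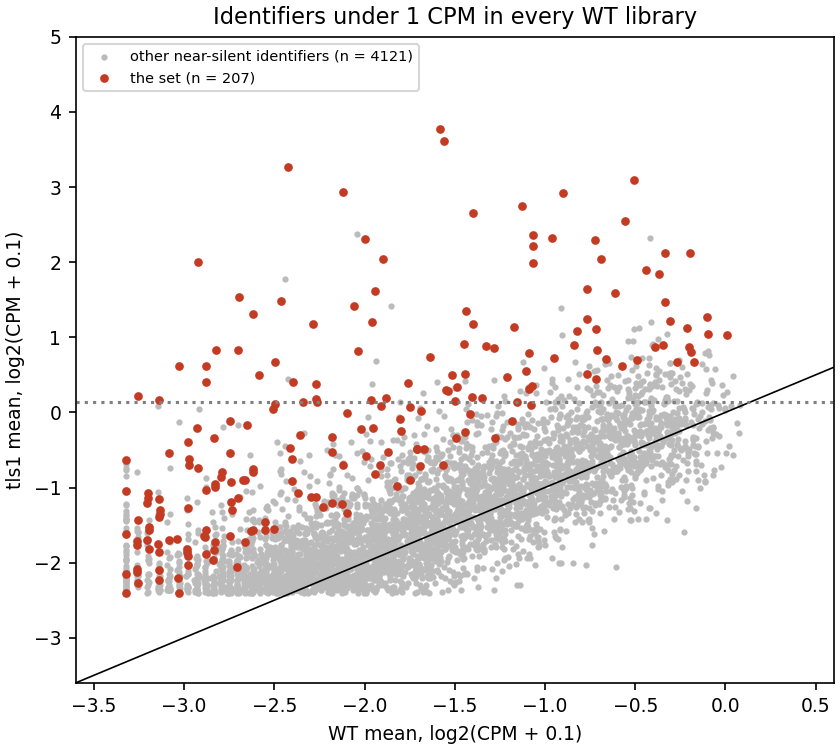
Mean level in WT (x axis) against mean level in tls1 (y axis), both as log2(CPM + 0.1), for the 4328 identifiers under 1 CPM in every WT library with at least 20 counts in tls1. The 207 members are red, the 4121 others grey, the solid line marks equal levels and the dotted line 1 CPM; 117 of the members lie under the dotted line.

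Zm00001d038703 had the highest mean level of the set in tls1 and also one of its widest spreads. It was measured at 0, 0.276 and 0.428 CPM in WT 1, 2 and 3 and at 4.24, 28.2 and 8.4 CPM in tls1 1, 2 and 3, a log2 fold change of 5.84 ± 1.24 (SE, edgeR). Library tls1 2 alone held most of its reads, and the lowest tls1 library still stood 3.04 above the highest WT library on the log2 scale.

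Zm00001d005383 and Zm00001d005377 were next, and they lie close together in the count table. The first had 0.0387, 0.386 and 0.294 CPM in WT against 8.12, 18.7 and 9.54 CPM in tls1, with a log2 fold change of 5.64 ± 0.76 (SE). The second had 0.0129, 0.166 and 0.0802 CPM in WT against 8.53, 12.5 and 7.59 CPM in tls1, with a log2 fold change of 6.76 ± 0.67 (SE). Their gaps of 4.08 and 4.86 were the widest of the set, and no other member had a gap of 4 or more.

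Zm00001d033633 differed from these in having a steady, measurable level in WT. Its WT libraries had 0.67, 0.538 and 0.601 CPM and its tls1 libraries 6.62, 12.5 and 6.2 CPM, a log2 fold change of 3.78 ± 0.34 (SE). Zm00001d002351 had 0.219, 0.4 and 0.454 CPM in WT and 9.14, 5.06 and 5.73 CPM in tls1 (log2 fold change 4.19 ± 0.39, SE). In this gene tls1 1 and not tls1 2 was the highest library.

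Zm00001d029359 had 0.116, 0.193 and 0.0802 CPM in WT and 8.16, 11.7 and 2.81 CPM in tls1, where library 3 was well below the other two. Zm00001d010588 had 0.142, 0.593 and 0.575 CPM in WT and 3.2, 12.9 and 6.38 CPM in tls1. Zm00001d019477 had 0.103, 0.455 and 0.281 CPM in WT and 2.69, 12.3 and 3.65 CPM in tls1. In both of these, library 1 was the lowest of its genotype and library 2 the highest of tls1.

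Zm00001d007789 shared with Zm00001d002351 that tls1 2 was its lowest tls1 library. It had 0.593, 0.317 and 0.829 CPM in WT and 8.44, 2.83 and 6.02 CPM in tls1, so that library 2 was the lowest in both genotypes. The remaining 3 of the 12 highest members were Zm00001d004413, Zm00001d025490 and Zm00001d048558. Their tls1 means were 5.02, 4.89 and 4.85 CPM and their WT means 0.378, 0.414 and 0.15 CPM.

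**Figure D2:**
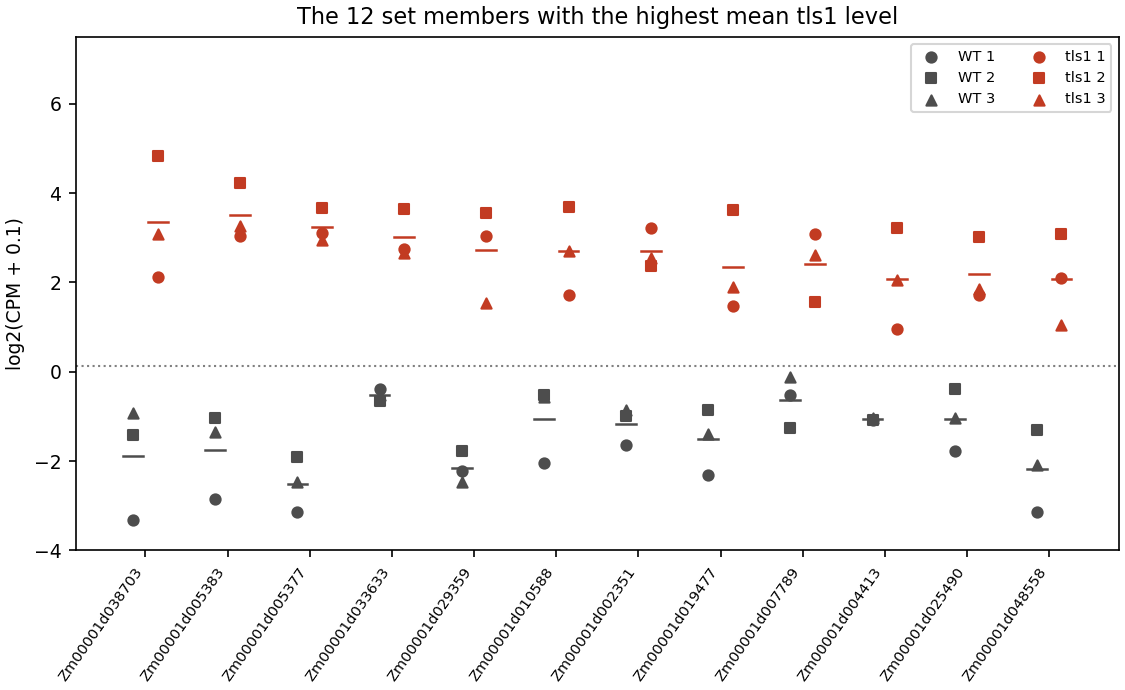
Levels of the 12 members with the highest mean in tls1, as log2(CPM + 0.1), with 1 point for each library (WT grey, tls1 red; circle, square and triangle for libraries 1, 2 and 3) and a bar at the mean of the 3 log values. All tls1 points lie above the dotted line at 1 CPM and all WT points below it, and library 2 is the highest tls1 point in 10 of the 12 genes.

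A pair of members with large gaps had lower levels. Zm00001d031934 had 0, 0.124 and 0.12 CPM in WT and 2.94, 2.57 and 2.54 CPM in tls1, where the highest library was only 1.16 times the lowest. Zm00001d041794 had 0, 0.069 and 0.0267 CPM in WT, from 7 reads in all, and 1.85, 3.5 and 6.36 CPM in tls1, with library 3 the highest.

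Of the 207 members, 5 had no read in any WT library. Against a floor of 3 counts in each WT library, which averages 0.04 CPM, the tls1 mean of Zm00001d040851 was 13.6-fold higher, with 0.47, 0.612 and 0.549 CPM. That of Zm00001d037645 was 9.64-fold higher than the floor, with 0.524, 0.354 and 0.281 CPM in tls1. These genes were not detected in WT at this depth, and their levels in tls1 were under 1 CPM in every library. The others, Zm00001d025847, Zm00001d007788 and Zm00001d010509, had tls1 means 5.63-fold, 3.13-fold and 2.24-fold above the floor, from 50, 28 and 20 reads summed over tls1. Counting error and spread in tls1 are not included in these ratios. A further 23 members had 1 to 3 reads in WT.

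At the edges of the rule, members and non-members had nearly the same values. The members with the smallest gaps, Zm00001d022529, Zm00001d012285 and Zm00001d010256, had gaps of 0.50, 0.504 and 0.506. Just outside stood Zm00001d052530, Zm00001d019274 and Zm00001d014843, with gaps of 0.499, 0.494 and 0.494. At the WT limit, the highest WT library of Zm00001d003501 had 0.979 CPM and was inside, while that of Zm00001d043973 had 1.01 CPM and was outside. The members Zm00001d039842 and Zm00001d017101 had 0.966 and 0.952 CPM there, and the non-members Zm00001d020492 and Zm00001d025533 had 1.02 and 1.03 CPM. At the limit on summed counts, Zm00001d031514 and Zm00001d010509 entered with 20 tls1 counts and Zm00001d012494 with 24. The only identifier that met the other conditions with fewer counts was Zm00001d023413, with 19.

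The same thresholds with the genotypes exchanged gave a far smaller set. Of 3455 identifiers that were under 1 CPM in every tls1 library with at least 20 counts in WT, 21 had a gap of at least 0.5 in favour of WT, which was 0.608% against the 4.78% in the other direction. A gap of at least 1 was reached by 86 members and by 3 genes in the opposite direction. A gap of at least 2 was reached by 26 members and by 0 genes in the opposite direction. Both counts come from the same libraries and the same contrast, so they are given without a test. The same direction was seen among the 19696 nuclear genes fitted with edgeR that had 1 CPM or more in a WT library. A gap of at least 0.5 was found for 134 of them with tls1 above WT and for 30 with WT above tls1. The size of the set depended on the number of libraries. Leaving out any 1 library makes the gap condition easier to meet, and the set then held from 264 to 530 identifiers. It was largest without WT 2, at 530, with all 207 members among them. Without tls1 3 it was 465, with 199 of the members. The opposite set held between 42 and 81 genes without 1 library. With the gap taken within replicate numbers, as in a paired comparison, 394 identifiers entered, and 78 in the opposite direction.

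**Figure D3:**
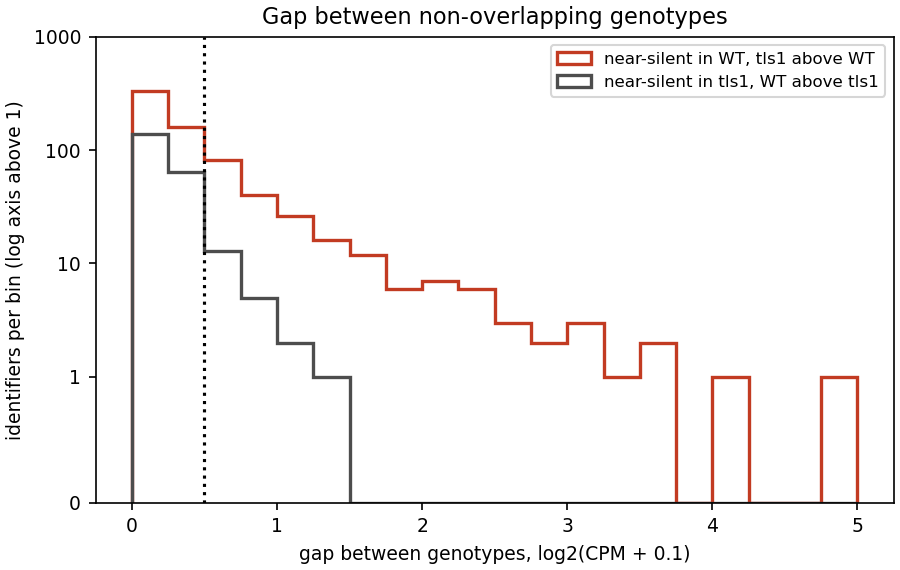
Number of identifiers (y axis, logarithmic above 1) by the gap between non-overlapping genotypes on the log2(CPM + 0.1) scale (x axis, bins of 0.25), for identifiers near-silent in WT and higher in tls1 (red) and for identifiers near-silent in tls1 and higher in WT (grey). The dotted line is the entry limit of 0.5; to its right lie 207 identifiers in red and 21 in grey.

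Low-level transcripts outside the set also had a higher summed level in the tls1 libraries. Over all nuclear identifiers with a mean under 1 CPM across the 6 libraries, members left out, the summed level was 1501, 1747 and 1585 CPM in WT 1, 2 and 3 and 2087, 1854 and 1787 CPM in tls1 1, 2 and 3. The genotypes did not overlap in this sum (exact permutation p = 0.1, 2-sided, the smallest p that 3 against 3 libraries allow). The permutation exchanged libraries without regard to replicate number. The part of this sum in the size of the set was not tested. The number of nuclear identifiers with at least 1 read overlapped between the genotypes, with a range of 27554 to 27603 in WT and of 27162 to 27999 in the mutant. Summed over the 207 members, levels were 32.8, 52.4 and 41.2 CPM in WT and 257, 389 and 254 CPM in tls1.

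The 10 highest members gave 23.8%, 32.3% and 23.8% of the summed level of the set in tls1 1, 2 and 3, and between 6.92% and 9.74% in the WT libraries. In every library the larger part of the sum thus came from the other members.

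Within tls1, the members did not rank the libraries alike. The highest library was tls1 2 for 101 members, tls1 1 for 65 and tls1 3 for 41. Of the 4121 near-silent identifiers outside the set, 32.4% were highest in tls1 2, against 48.8% of the members. Members more than 2-fold above both other libraries numbered 22 in tls1 2, 3 in tls1 1 and 5 in tls1 3. The members that were highest in tls1 1 had a median tls1 mean of 0.553 CPM, those highest in tls1 2 of 0.932 CPM and those highest in tls1 3 of 1.04 CPM.

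**Figure D4:**
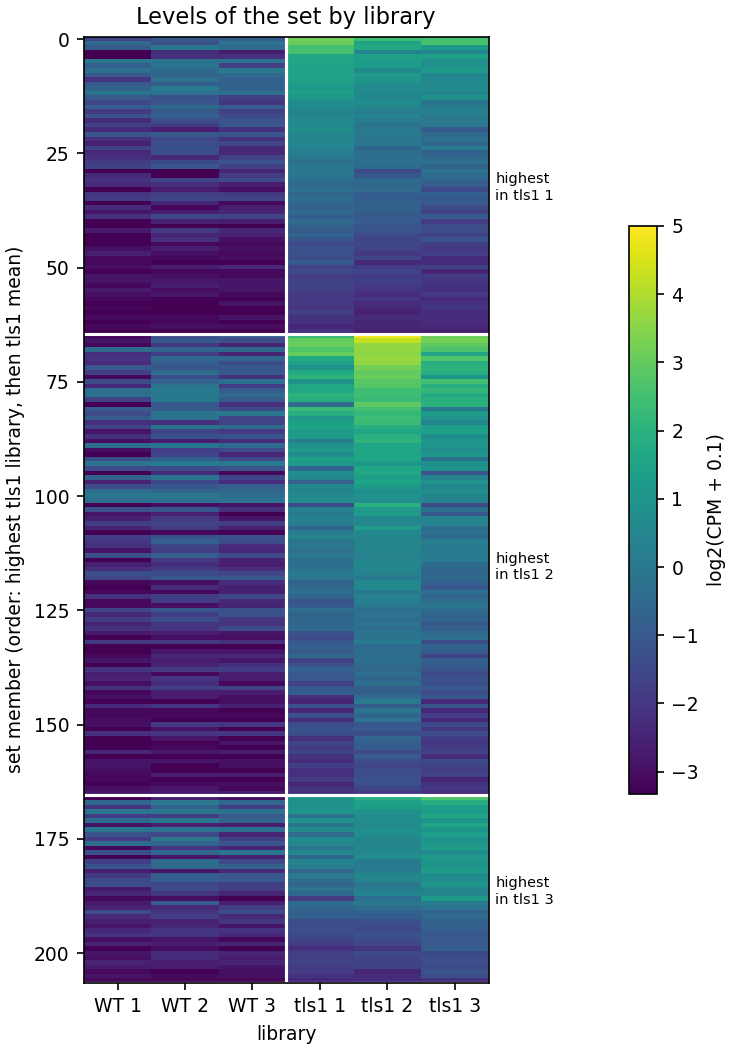
Level of each of the 207 members (rows) in the 6 libraries (columns) as log2(CPM + 0.1) in colour. Rows are grouped by the tls1 library with the highest level (65, 101 and 41 members) and sorted by tls1 mean within each group; the brightest rows are in the group that is highest in tls1 2.

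The ratio of the highest to the lowest tls1 library had a median of 1.89 over the members and ran from 1.02 to 14.8. It was under 1.5 for 61 members and over 4 for 27. For the 3799 near-silent identifiers outside the set with a read in every tls1 library the median was 2.47. The rule favours members with an even level, because it uses the lowest tls1 library.

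Some members with a tls1 mean of 1 CPM or more were particularly even or uneven. Zm00001d042717 had 1.37, 1.36 and 1.57 CPM in tls1, but its WT libraries spread from 0.309 to 0.855 CPM. Zm00001d018809 had 1.88, 1.84 and 2.19 CPM in tls1 and 0.837, 0.883 and 0.789 CPM in WT, so that it was low but steady in both genotypes. Zm00001d008548 was the most uneven member, with 0.255, 3.77 and 0.281 CPM in tls1 and at most 0.0401 CPM in WT. Its tls1 mean of 1.44 CPM therefore rested on tls1 2. Zm00001d046805 had 0.175, 0.708 and 2.19 CPM in tls1, with library 3 the highest. Zm00001d008370 had 0.658, 7.5 and 3.85 CPM in tls1 and 0, 0.386 and 0.12 CPM in WT, with library 1 the lowest in both genotypes.

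In WT, library 2 was most often the highest for the residual reads. WT 2 was the highest WT library for 120 members, WT 3 for 55 and WT 1 for 32. WT 2 was thus highest for 58% of the members, and it was also highest for 48.1% of the near-silent identifiers outside the set. WT 1 held no read of 37 members, WT 2 of 18 and WT 3 of 20. Library 2 was highest in both genotypes for 60 members. The highest WT and the highest tls1 library had the same number for 83 members, or 40.1%, against 38.8% of the near-silent identifiers outside the set. Within pairs of 1 replicate number, the median difference between tls1 and WT over the members was 1.82 on the log2 scale in pair 1, 1.73 in pair 2 and 1.49 in pair 3.

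Of the 207 members, 179 passed the filter on low counts and were fitted with edgeR among 23349 rows of the table. The 28 that did not pass had tls1 means of at most 0.387 CPM. Members with few WT reads passed this filter through their tls1 libraries. Others, such as Zm00001d003501 with 62, 71 and 70 counts in WT, had reads enough in both genotypes. All members had to differ because of the gap that the rule demands. Without regard to replicate number, edgeR called 0 of the 179 at an adjusted p under 0.05 and 0.00428% of all rows higher in tls1, and 178 of the 179 had an unadjusted p under 0.05, against 7.33% of all rows. With the replicate number as a block, edgeR called 33 members and 0.493% of all rows. DESeq2 called 129 members and 2.92% of the rows, and limma-voom called 1 member, Zm00001d040851, and 0.00857% of the rows. The rule used this contrast, so nothing is read from these counts. Non-overlap with tls1 above WT, which the rule demands, held for 11.3% of all rows, and a gap of at least 0.5 for 1.34%.

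The position of the members in the count table was not used by the rule. The table lists the nuclear genes largely by identifier number, with microRNA genes between them. Of the 153 microRNA genes found in the reference table, 152 stood in an unbroken series with the others of their chromosome, over 10 chromosomes, so neighbouring rows were taken as neighbouring genes. The shares below count identifier numbers, which do not follow the rows throughout, and this check does not cover them directly. Zm00001d022712, for example, stood between Zm00001d028287 and Zm00001d028465 among the members. Another member lay within 10 identifier numbers for 32 of the 207 members, or 15.5%. A member lay that close to 6.89% of the near-silent identifiers outside the set. Within 50 numbers the shares were 41.5% and 30.8%, and for directly consecutive numbers 5.8% and 0.728%. These shares are descriptions, and their difference was not tested.

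There were 3 runs of at least 3 members in which each lay within 20 numbers of the next. The first, between the microRNA genes zma-MIR2118g and zma-MIR398a, held Zm00001d005377, Zm00001d005378 and Zm00001d005383. Zm00001d005378 had 0, 1 and 0 reads in WT 1, 2 and 3 and 1.05, 1.36 and 0.776 CPM in tls1, with the same order of tls1 libraries as Zm00001d005377 next to it. Between these members and Zm00001d005383 lay 3 identifiers, of which Zm00001d005379 and Zm00001d005380 had no read in any library. The third, Zm00001d005381, had at most 0.0414 CPM in WT and 0.0671, 0.122 and 0.0937 CPM in tls1. The nearest well-expressed genes on either side had overlapping levels in the 2 genotypes: Zm00001d005373 had 82.8, 81 and 90.6 CPM in WT and 74.2, 79.7 and 82.3 CPM in tls1, and Zm00001d005392 had 22.4, 20.9 and 16.8 CPM in WT and 20.7, 20.9 and 19 CPM in tls1.

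The second run, between zma-MIR164e and zma-MIR482, held Zm00001d029353, Zm00001d029359 and Zm00001d029371. Zm00001d029353 had 0.142, 0.51 and 0.187 CPM in WT and 1.73, 2.37 and 2.41 CPM in tls1. Zm00001d029371 was lower, with 0.0773, 0.152 and 0.134 CPM in WT and 0.564, 0.83 and 0.388 CPM in tls1. Between them stood Zm00001d029356, which missed the set because WT 2 had 1.08 CPM. It had 0.49, 1.08 and 0.588 CPM in WT and 8.26, 10.4 and 11.6 CPM in tls1, a gap of 2.83, and it was singled out after its values were seen. Other genes between these members overlapped between genotypes where they had reads. Zm00001d029361 had 37.9, 39.5 and 37.4 CPM in WT and 38.2, 42.8 and 39.1 CPM in tls1. Zm00001d029365 overlapped only narrowly, with 66.3, 88.7 and 72.6 CPM in WT and 140, 103 and 86.3 CPM in tls1.

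The third run, between zma-MIR156b and zma-MIR393b, was at lower levels. Zm00001d039785 had 0.271, 0.386 and 0.454 CPM in WT and 1.38, 2.22 and 1.3 CPM in tls1. Zm00001d039786 had 0.0258, 0.11 and 0.0535 CPM in WT and 0.201, 0.218 and 0.294 CPM in tls1, close to the limit of the rule. Zm00001d039788 had 0, 0.0414 and 0.0401 CPM in WT and 0.43, 0.708 and 0.415 CPM in tls1. The gene between the last 2, Zm00001d039787, had overlapping levels of 27.3, 24.4 and 25.3 CPM in WT and 26.6, 27.8 and 30 CPM in tls1. Here, as in the run with Zm00001d029359, the members were thus not part of an unbroken stretch of higher genes. For the run with Zm00001d005377 this cannot be said. Each gene with reads between its outer members was higher in all tls1 libraries, although Zm00001d005381 reached only 0.122 CPM. Zm00001d005379 and Zm00001d005380 had no reads and cannot decide the question.

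**Figure D5:**
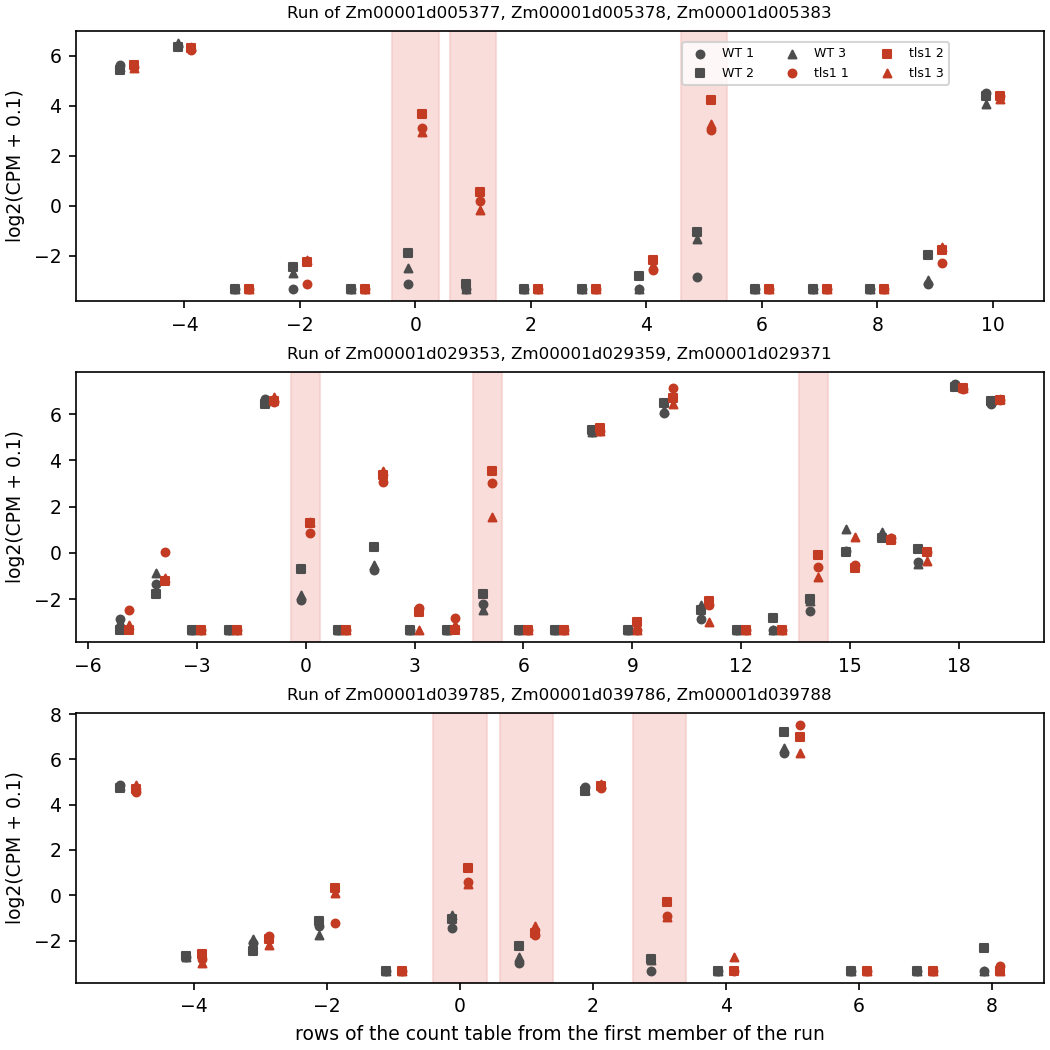
Levels as log2(CPM + 0.1) of the genes in and around the 3 runs of members, by row of the count table counted from the first member, with WT in grey, tls1 in red and circle, square and triangle for libraries 1, 2 and 3. Shaded columns are members; most genes between them have no reads or overlapping levels, while Zm00001d029356, 2 rows after the first member in the middle panel, and Zm00001d005381 in the top panel, at most 0.122 CPM, do not overlap.

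Directly consecutive identifiers were both in the set in 6 cases. In Zm00001d016947 and Zm00001d016948 the libraries had the same order within each genotype: the first had 0, 0.166 and 0.0668 CPM in WT and 0.712, 1.29 and 0.95 CPM in tls1. The second had 0, 0.221 and 0.0936 CPM in WT and 1.5, 2.93 and 2.03 CPM in tls1. In Zm00001d007788 and Zm00001d007789 library 1 was the highest and library 2 the lowest of tls1, with 0.201, 0.0681 and 0.107 CPM for the first. These levels of Zm00001d007788 came from 15, 5 and 8 reads, so its order of tls1 2 and tls1 3 is uncertain. Zm00001d038907 and Zm00001d038908 differed, since the first was highest in tls1 2 with 0.476 CPM and the second in tls1 3 with 3.04 CPM. The strand setting of the counting is not given here, so reads of neighbouring or antisense genes cannot be told apart.

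Of 327 identifiers adjacent to a member by number and outside the set, 161 passed the filter, and their median log2 fold change was 0.03, against 0.01 over all 23349 rows. The genotypes did not overlap, with tls1 above WT, for 29 of the 161, or 18%, where the share over all rows, members included, was 11.3%. A gap of at least 0.5 was found for 6 of the 161, or 3.73%, against 0.578% of the 23170 tested rows outside the set.

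Each of those 6 neighbours reached 1 CPM in at least 1 WT library and was higher in all tls1 libraries. Both properties follow from how they were chosen, with a gap of at least 0.5 and outside the set. Zm00001d040027, next to the member Zm00001d040026, had 10.9, 30.5 and 14.3 CPM in WT and 92.6, 159 and 161 CPM in tls1. The member itself had 0.335, 0.248 and 0.0802 CPM in WT and 0.685, 1.59 and 2.42 CPM in tls1, with library 3 the highest of tls1 in both genes. Zm00001d002132, next to Zm00001d002133, had 71.8, 65.5 and 25.5 CPM in WT and 137, 201 and 141 CPM in tls1. Its member neighbour had 0.0387, 0.069 and 0.0535 CPM in WT and 0.819, 1.42 and 2.82 CPM in tls1, so the highest tls1 library differed between these genes. Zm00001d034673, next to Zm00001d034672, had 1.8, 3.26 and 2.06 CPM in WT and 15.4, 17.7 and 21.4 CPM in tls1.

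Zm00001d024885 had 0.812, 3.5 and 1.58 CPM in WT and 9.12, 11 and 9.67 CPM in tls1. The member Zm00001d024886 beside it had 0.206, 0.924 and 0.428 CPM in WT and 3.54, 4.85 and 3.71 CPM in tls1. The order of the libraries was the same in both genes, in WT and in tls1. Zm00001d003089 and Zm00001d025846 had smaller differences, with log2 fold changes of 0.99 ± 0.16 and 0.94 ± 0.21 (SE, edgeR).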

How the data were processed

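The authors deposited 1 table of raw read counts, not normalized, with 1 column for each of the 6 libraries and 45953 features. The submitters' processing notes name cutadapt and STAR, without versions. The sources used here do not give the counting program, its strand setting or the genome build. CPM is the count over the column sum, times 1000000. The members and lists were chosen with earlier results of these data known. Named are the 12 members highest in tls1, the 8 with the largest gap, runs of at least 3 members, the 3 genes on each side of each limit (fewer where fewer existed) and neighbours with a gap of 0.5; genes without WT reads, consecutive members, genes beside runs and examples of spread were added after their values were seen.

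All 6 libraries were fitted with edgeR 4.0.16 in R 4.3.3 (quasi-likelihood F test on the counts, TMM, filterByExpr, genotype as factor, Benjamini-Hochberg adjustment over 23349 rows), after a check on simulated counts. SE is the log2 fold change over the root of F, from the fit with genotype alone. DESeq2 1.42.0, limma 3.58.1, other factors and filters, leaving out each library and a replicate block were alternatives. Deviations from genotype means correlated between libraries of 1 number at 0.402, 0.584 and 0.668, so the numbers were taken to pair the libraries, on the data alone. Every 2 libraries differed by more than sampling noise (lowest mean chi-square per gene 42.1). Separate plants per library are not stated in the labels, and p-values then reflect variation among libraries that may be technical. Python 3.11.15 was used for the rule, permutations and figures. Of the reference table, made from assembly Zm-B73-REFERENCE-NAM-5.0, entries matched 0 nuclear identifiers and 153 of 154 microRNA genes.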

Additional observations from a re-analysis of the deposited data

How the results depend on the processing

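The size of the set depended on the rule. It was 86 at a gap of 1, 88 with a pseudocount of 0.5 CPM, 394 with the gap taken within replicate numbers (a paired, or replicate block, version) and from 264 to 530 when 1 library was left out. Other CPM limits, count limits and scalings gave between 169 and 240. The opposite set of 21 became 3, 5 and 78 under the first 3 of these and from 42 to 81 without 1 library. With fewer libraries the gap and CPM conditions are easier to meet and the summed count harder: all 207 members stayed without any 1 WT library, and 196, 194 and 199 without tls1 1, 2 and 3.

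No member was called by edgeR, nor without any 1 library (from 0 to 0). With no filter 3 were called (Zm00001d002351, Zm00001d005377 and Zm00001d033633), with limma-voom 1 and with DESeq2 129. The replicate block called 33, and 52, 20 and 7 without pair 1, 2 and 3, alternatives chosen after seeing the data. Over all genes, 1 was called higher, from 0 to 9 without 1 library, 13 with no filter, 2 with limma-voom and 681 with DESeq2. The block gave 115, and 301, 122 and 43 without pair 1, 2 and 3. The cause was not tested. The 35 named genes with a log2 fold change kept their direction in every alternative that gave a value, 16 at most. For members this follows from the rule. The non-members among them were also chosen by their gap between the genotypes, so nothing is read from their direction. For 30 members, under 50 counts over tls1 limit the precision of the level.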

Other observations

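The 21 identifiers of the opposite kind, near-silent in tls1 and higher in every WT library, were low in both genotypes. Zm00001d031736 had the widest gap, with 2.47, 3.48 and 3.76 CPM in WT 1, 2 and 3 and 0.524, 0.531 and 0.843 CPM in tls1 1, 2 and 3. Zm00001d007027 had 0.837, 2.88 and 3.01 CPM in WT and 0, 0.0136 and 0.321 CPM in tls1, where library 3 held most of the reads. Zm00001d022926 had 0.374, 0.579 and 0.374 CPM in WT and 0.107, 0.0136 and 0.107 CPM in tls1. These are the 3 with a gap of at least 1, and they were chosen by the same contrast, so no test is given.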
